A study of Homo sapiens with 6 samples.

Results

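The clustered histone genes are the HIST1, HIST2, HIST3 and HIST4 genes, which encode the core histones H2A, H2B, H3 and H4 and the linker histone H1. The members were the protein-coding genes of the deposited table with a symbol beginning in HIST1H to HIST4H, which gave 62 of the 29185 genes listed. They comprised 6 H1, 14 H2A, 17 H2B, 13 H3 and 12 H4 genes. GENCODE 29 holds 71 such genes, of which 9 are not in the table and were not analysed here. Core histones form the protein spool of the nucleosome, and H1 binds the DNA where it enters and leaves that spool. Most clustered histone genes are transcribed in S phase, when newly copied DNA has to be packed, and their mRNAs end in a conserved stem-loop in place of a poly(A) tail. The stem-loop is bound by SLBP, and U7 snRNP directs the cut behind it. Some of these genes, HIST1H2BK, HIST1H2AC, HIST1H2BD, HIST1H1C and HIST2H2BE among them, are known to make polyadenylated transcripts as well.

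RNA came from SKOV3, an established human ovarian cancer cell line. The sh-KLF5 group (3 libraries) carried a stable lentiviral pLKO construct that silences the transcription factor KLF5, and the sh-NC group (3 libraries) was the control, whose genotype is given as WT in the labels. Stable lines had been selected with puromycin, and no drug, time point or second construct is named for these libraries, so a difference between the lines and an effect of the silencing cannot be told apart. mRNA had been enriched by its poly(A) tail before sequencing, which selects for transcripts that carry a tail. How much of the histone values comes from tailless transcripts was not tested. The labels do not say whether the 3 libraries of a group came from separate cultures. The methods speak of independent repetitions in general, without naming the sequencing, so the p-values measure the spread between these libraries, which may be technical.

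KLF5 itself had 4371, 4425 and 4494 normalized counts in the sh-NC libraries and 1745, 1439.9 and 1436 in the sh-KLF5 libraries, a log2 fold change of -1.53 (SE 0.12, limma adjusted p = 2.5e-07). Depth was close between the groups, at 15852319 to 17543896 recovered reads in sh-NC and 16009859 to 16871350 in sh-KLF5. Of the markers for SKOV3 epithelium, KRT8, KRT18, ERBB2, PAX8, MUC1 and EPCAM were at 97.6 normalized counts or more in every library, whereas KRT19 had at most 16.5. KRT8, KRT18 and MUC1 fell together with the histone genes (log2 fold changes -1.17, -0.64 and -1.20, limma adjusted p = 4.3e-05, 0.0034 and 2.1e-05), while EPCAM (-0.03), PAX8 (-0.25) and ERBB2 (-0.33) did not pass, and the part of this in the histone values was not tested. The blood cell marker PTPRC had at most 1 read in a library, and the endothelial marker PECAM1 had 31.1 to 79.6 normalized counts.

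The stem-loop of the members that the results turn on is shown here, since it is the element that sets these mRNAs apart and all the libraries were selected on a tail that lies behind it. Letters of the form GGCNCTTNTNAGNGCC were searched in the sense strand of the GENCODE 29 transcripts, and they were present in 32 of the 62 members, each time in the 3' UTR. Over all protein-coding genes, 40 of 19684 held them (0.203%). Capitals mark the stem-loop, with 5 bases on each side, written 5′ to 3′ as DNA with GRCh38 positions. HIST2H2BF, HIST1H2BE, HIST1H2BH, HIST1H3G and HIST1H4H were lower in sh-KLF5, and HIST1H2AG and HIST2H2BE are shown for comparison, as abundant genes that did not pass the test.
HIST2H2BF (chr1:149811880-149811905, minus strand): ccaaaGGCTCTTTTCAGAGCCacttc
HIST1H2BE (chr6:26184205-26184230, plus strand): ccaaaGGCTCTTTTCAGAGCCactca
HIST1H2BH (chr6:26252050-26252075, plus strand): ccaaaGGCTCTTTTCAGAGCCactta
HIST1H3G (chr6:26270918-26270943, minus strand): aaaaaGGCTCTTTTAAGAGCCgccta
HIST1H4H (chr6:26285126-26285151, minus strand): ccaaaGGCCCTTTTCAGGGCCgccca
HIST1H2AG (chr6:27133510-27133535, plus strand): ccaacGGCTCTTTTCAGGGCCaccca
HIST2H2BE (chr1:149886183-149886208, minus strand): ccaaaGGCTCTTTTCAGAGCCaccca

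The silencing of KLF5 was accompanied by lower levels of 7 histone genes, and none passed the test in the other direction. Normalized counts (reads divided by 1 factor per library) were compared with limma on log2(normalized count + 1). The added 1 shrinks the change of low genes. An uneven library can still make the fitted value larger in size than the ratio of the group means, as for HIST1H1B (-2.02 at 32.6% of sh-NC). Of the 62 members, 40 passed the filter on low counts and were tested within all 15803 tested genes. Adjusted p was under 0.05 with a lower level in sh-KLF5 for 7 of the 40 (17.5%), against 6.85% of all tested genes. These were HIST1H2BJ, HIST1H2BH, HIST2H2BF, HIST1H3G, HIST1H4H, HIST1H2BE and HIST1H1C, and edgeR and DESeq2 on the recovered reads called all 7 of them too. The opposite direction gave 0 of 40 by limma, edgeR and DESeq2, against 6.04% of all genes, and 1 of 40 at an unadjusted limma p under 0.05, HIST1H4K. Where a log2 fold change below -1 was required too, 3 genes were left (7.5%, background 3.37%), namely HIST1H2BJ, HIST1H2BH and HIST2H2BF, and as the highest value of any member was 0.67, none was above 1 (background 1.9%). HIST2H2BF lay just at the lower limit. Without the first sh-KLF5 library 12 members had an adjusted p under 0.05 with a lower level, as did 1514 of all 16373 genes tested there. Without the third, 5 members had a log2 fold change below -1 as well, as did 592 of all 16349 genes.

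Away from the threshold, most of the tested histone genes lay on the lower side. The log2 fold change was below 0 for 34 of 40 (85.0%, background 50.3%), and its median was -0.41, against -0.0023 over all tested genes. All 3 sh-KLF5 libraries were below all 3 sh-NC libraries for 19 genes (47.5%, background 15.9%), and above them for 1, HIST1H4K (2.5%, background 15.4%). Of the 22 members with a mean of at least 100 normalized counts, 19 had a log2 fold change below 0. HIST1H1B is counted in the 34 and in the 19, although it passed the filter on low counts through its sh-NC libraries alone. HIST1H1T and HIST1H4E, counted in both too, reached 10 reads in every sh-NC but not in every sh-KLF5 library. The same holds for HIST2H2AC, HIST1H2AL and HIST1H4C, which are counted in the 34. In HIST2H4A, also in the 34, it was a sh-NC library that fell short. Members share clusters, promoters and sequence, so they are not independent of each other.

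Summed over all 62 members, the libraries held 25116, 21828 and 25002 normalized counts in sh-NC and 17051, 17118 and 17818 in sh-KLF5, so that the groups did not overlap and sh-KLF5 had 72.3% of the control level. HIST1H2BK and HIST1H1C supplied 42.0% of this sum. The H1 class stood at 61.0% of sh-NC, H4 at 72.6%, H2B at 73.6%, H3 at 76.6% and H2A at 82.6%. In each of the 5 classes the 3 sh-KLF5 sums were below the 3 sh-NC sums. Each class sum rests largely on 1 gene, which supplied 97.7% of H1 (HIST1H1C), 74.4% of H2A (HIST1H2AC), 56.7% of H3 (HIST1H3H), 54.8% of H4 (HIST1H4I) and 51.8% of H2B (HIST1H2BK). Without that gene the classes stood at 53.3%, 92.5%, 66.1%, 64.8% and 69.0% of sh-NC, in the same order. The H2A sums of the groups then overlapped, whereas those of the other classes stayed apart.

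**Figure D1:**
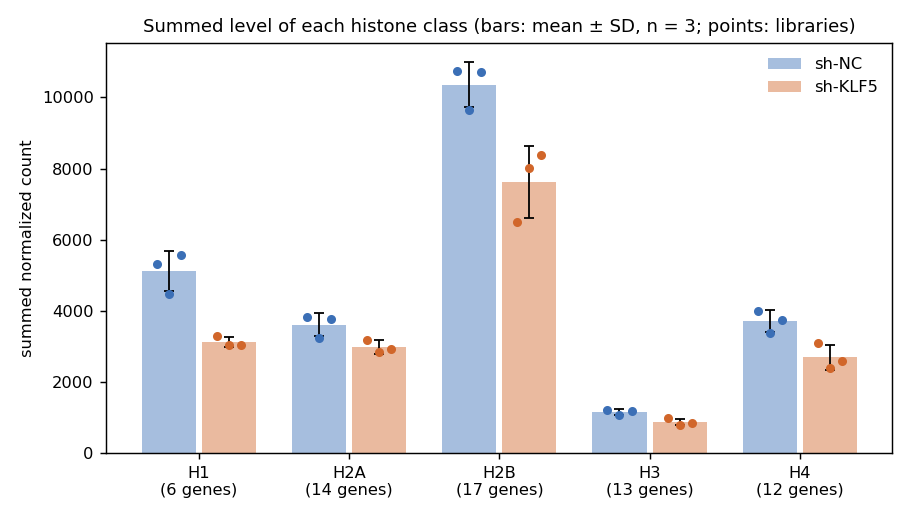
Summed normalized counts (vertical axis) of the members of each histone class, for sh-NC (blue) and sh-KLF5 (orange). Bars are means with SD over 3 libraries and points are single libraries; the orange points lie below the blue ones in each class, with H1 at 61.0% and H2A at 82.6% of sh-NC.

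**Figure D2:**
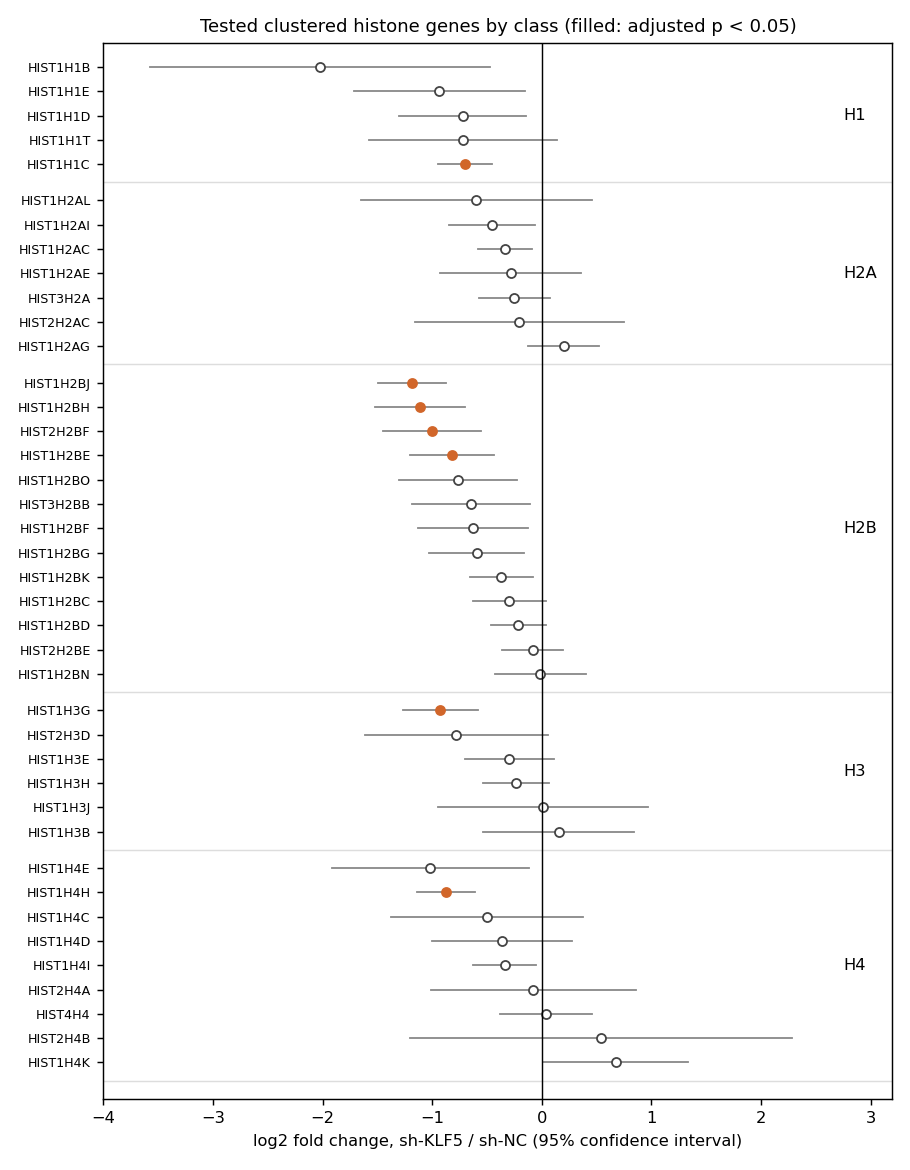
Log2 fold change of sh-KLF5 against sh-NC (horizontal axis) for the 40 tested histone genes by class, with limma 95% confidence intervals. Filled points mark the 7 genes with adjusted p under 0.05, all to the left of 0 and 4 of them in the H2B class.

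The linker histone class had 1 dominant member. HIST1H1C, which encodes H1.2 (chr6:26055787-26056428, minus strand), had 5182, 4388 and 5423 normalized counts in sh-NC and 3228, 2979.8 and 2972 in sh-KLF5, with no overlap. Its level fell to 61.2% of sh-NC (log2 fold change -0.70, SE 0.12, limma adjusted p = 5.8e-04). The annotated gene is a single exon of coding sequence, so reads on any longer 3′ end lie outside the model.

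The other H1 genes were far less abundant and did not pass the test. All 5 tested H1 genes had a log2 fold change below 0 (median -0.72), against 50.3% of all tested genes. HIST1H1D, which encodes H1.3, had 49.3, 40.4 and 58.4 normalized counts in sh-NC and 29.6, 29.1 and 29.1 in sh-KLF5 (log2 fold change -0.72, limma adjusted p = 0.1). HIST1H1E, which encodes H1.4, had 46.6, 20.7 and 48.8 against 18.3, 21.3 and 16.04, where the second sh-NC library lay among the sh-KLF5 values. The testis-specific HIST1H1T had 22.3, 21.7 and 15.9 against 8.15, 13.6 and 14.0. HIST1H1B, which encodes H1.5, had the most negative fitted value of all members (-2.02, 95% confidence interval -3.57 to -0.47, limma adjusted p = 0.084), but it rested on 17, 20 and 15 reads against 0, 9 and 8. With so few reads this fold change gives no size for the change, as it ran from -3.15 to -1.20 with the pseudocount and was -0.95 without the first sh-KLF5 library, which had 0 reads. Its limma adjusted p was under 0.05 with no filter on low counts (0.0053), with a replicate block (0.019) and without the third sh-KLF5 library (0.043), and over all alternatives it ranged from 0.0053 to 0.24. HIST1H1B passed the filter through its sh-NC libraries alone, as no sh-KLF5 library reached 10 reads. Such an entry favours a value below 0. HIST1H1A was not tested and had at most 3 reads in each library.

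The H2A class held no gene past the threshold. Of its 7 tested genes, 0 passed limma's adjusted p (background 6.85% lower and 6.04% higher), and the median log2 fold change was -0.28. On the recovered reads edgeR gave 0 and DESeq2 1, HIST1H2AC. HIST1H2AC, the most abundant H2A gene, had 2921, 2487 and 2805 normalized counts in sh-NC and 2397, 2041 and 2085 in sh-KLF5, so that the groups separated by a narrow margin. Its log2 fold change was -0.33 (95% confidence interval -0.58 to -0.08, limma adjusted p = 0.076, DESeq2 adjusted p = 0.045). HIST1H2AI had 159, 127 and 162 against 114, 96.1 and 116 (limma adjusted p = 0.13), and 60.1% of its 75-base windows occur in another gene too, mainly HIST1H2AJ. HIST1H2AG was the only tested H2A gene with a positive value, at 369, 265 and 324 in sh-NC and 349, 344 and 399 in sh-KLF5. Its groups overlapped, and the log2 fold change of 0.20 had a 95% confidence interval of -0.12 to 0.52 (limma adjusted p = 0.44).

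The H2B class held 4 of the 7 genes that passed, out of 13 tested (background 6.85%). All 13 tested H2B genes had a log2 fold change below 0 (median -0.63), against 50.3% of all tested genes. HIST1H2BJ (chr6:27125897-27132750, minus strand) showed the largest fall among the genes that passed. It had 1379.9, 1314 and 1417 normalized counts in sh-NC and 509, 546 and 787 in sh-KLF5, or 1370.3 ± 51.7 against 614 ± 151 (SD, n = 3). The third sh-KLF5 library was the highest of its group and was still far below each control. The level was 44.8% of sh-NC (log2 fold change -1.18, SE 0.15, limma adjusted p = 4.3e-05). No stem-loop lies in its annotated transcripts.

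HIST1H2BH (chr6:26251651-26253710, plus strand), a single-exon gene whose model runs 1640 bases past the stem-loop, had 232, 257 and 222 normalized counts in sh-NC and 84.6, 109 and 141 in sh-KLF5. These groups lay well apart (log2 fold change -1.11, SE 0.19, limma adjusted p = 9.4e-04). HIST2H2BF (chr1:149782689-149812373, minus strand) had 318, 315 and 250.4 against 98.9, 179.5 and 174, with the first sh-KLF5 library lowest (log2 fold change -1.002, SE 0.21, limma adjusted p = 0.0041). It is uncertain as a single gene, because 21.4% of its windows are shared with HIST2H2BA, HIST2H2BB and others, and 5.54% of its exons overlap FCGR1A on the other strand. HIST1H2BE (chr6:26172059-26184655, plus strand) had 278, 238 and 183 in sh-NC and a very even 129, 128 and 132 in sh-KLF5. Its log2 fold change was -0.82 (SE 0.18, limma adjusted p = 0.0056), and without the first sh-NC library, the highest, the adjusted p was 0.054. In HIST1H2BE, 28.2% of the exonic bases overlap the antisense gene AL353759.1.

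**Figure D3:**
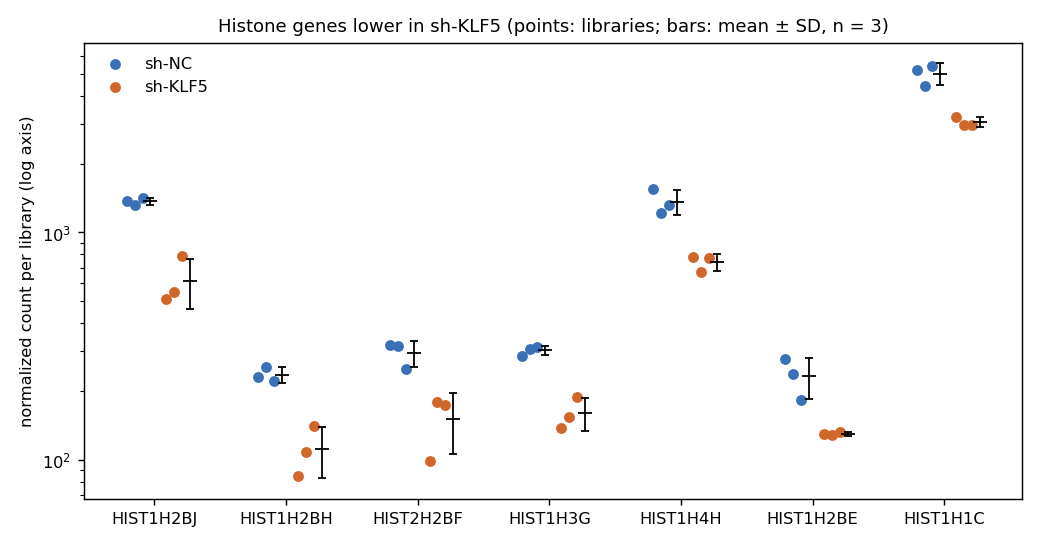
Normalized counts per library (vertical log axis) of the 7 histone genes with limma adjusted p under 0.05, in the order of their fold change. Blue points are sh-NC and orange points sh-KLF5 libraries, black bars are mean ± SD (n = 3), and in each gene all orange points lie below all blue points.

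Other abundant H2B genes had values closer to 0 and did not pass the test. HIST1H2BK, the highest of all members per kilobase of exon (13725 normalized counts per kb in sh-NC), had 5370.4, 4735 and 5582 normalized counts in sh-NC and 3283, 4384 and 4578 in sh-KLF5. The groups separated by a small gap (log2 fold change -0.37, 95% confidence interval -0.65 to -0.08, limma adjusted p = 0.087). Its annotated model is 381 bases of coding sequence, and 50.5% of its windows recur in other genes, mainly H2BFS, which had at most 3.94 normalized counts in a library. HIST1H2BD had 825, 765 and 866 against 668, 755 and 694 (log2 fold change -0.21, limma adjusted p = 0.27). HIST2H2BE had 944, 809 and 807 against 869, 870.4 and 686, with overlap between the groups. The 95% confidence interval of its log2 fold change was -0.36 to 0.19. Thus the H2B genes ranged from 44.8% of the control level in HIST1H2BJ to 94.7% in HIST2H2BE among those named.

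In the H3 class, HIST1H3G was the 1 gene of 6 tested that passed (background 6.85%). With so few genes tested, this count says little about the class. HIST1H3G (chr6:26269405-26271815, minus strand) had 287, 308 and 314 normalized counts in sh-NC and 138, 154 and 189.5 in sh-KLF5, which fell to 52.9% of the control (log2 fold change -0.92, SE 0.16, limma adjusted p = 9.2e-04). HIST1H3H, the most abundant H3 gene, had 674, 559.7 and 642 against 639, 474 and 492, so that the groups overlapped (log2 fold change -0.23, limma adjusted p = 0.32). HIST1H3E had 130.4, 105 and 137 against 98.9, 108 and 95.3 (log2 fold change -0.29). HIST1H3B had 37.2, 26.6 and 40.3 against 57.1, 26.2 and 37.1, so that the first sh-KLF5 library was the highest of all 6. Its log2 fold change of 0.15 (95% confidence interval -0.53 to 0.84) became -0.13 without that library. The class median was -0.26.

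In the H4 class, whose genes mostly encode the same protein, HIST1H4H was the 1 gene of 9 tested that passed (background 6.85%). This count, too, is small for a statement about the class. HIST1H4H (chr6:26277609-26285638, minus strand) had 1552, 1221 and 1320.0 normalized counts in sh-NC and 784, 669.5 and 771 in sh-KLF5, without overlap. It fell to 54.3% of the control (log2 fold change -0.88, SE 0.13, limma adjusted p = 1.6e-04). HIST1H4I, the most abundant H4 gene, had 2115, 1747 and 2009 against 1889, 1376 and 1409.7, where the first sh-KLF5 library reached the range of the controls (log2 fold change -0.34, limma adjusted p = 0.12). HIST1H4K had the highest fold change of all members (0.67, limma adjusted p = 0.18). Its values were 27.0, 25.6 and 17.0 against 37.7, 34.9 and 38.1, and each of its 75-base windows (100%) is also found in HIST1H4J, so its counts depend on how reads shared by both genes were assigned. HIST2H4B had 24.2, 141 and 151 against 111, 116 and 126, where the first sh-NC library stood apart and 97.1% of the windows are shared with HIST2H4A. Without that library its log2 fold change was -0.30 in place of 0.54. The class median was -0.34.

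The HIST3 and HIST4 genes lie apart, on chromosomes 1 and 12. HIST3H2A had 268, 272 and 343 normalized counts in sh-NC and 261, 247 and 229.6 in sh-KLF5 (log2 fold change -0.25, limma adjusted p = 0.32). HIST3H2BB had 78.2, 51.2 and 71.1 against 37.7, 46.6 and 41.1 (log2 fold change -0.65, limma adjusted p = 0.11). In both, the groups did not overlap. HIST4H4 had 153, 159.6 and 144 against 182, 114 and 183 with overlap (log2 fold change 0.04, 95% confidence interval -0.38 to 0.46). The testis-specific HIST3H3 had at most 3 reads in a library and was not tested. Altogether 22 members were not tested. None of them exceeded 20 reads in a library, and 7 had 3 reads or fewer in all 6, at which depth no difference was detectable.

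By position, 5 of the 7 genes that fell lie in the large HIST1 block on chromosome 6, which also holds 19 of the 40 tested members. Members were split into blocks where neighbouring members lay over 100 kb apart. In the block chr6:26017085-26285638, 18 of the 19 tested members had a log2 fold change below 0 (median -0.63), and 5 passed the test. The block chr6:27125897-27147515 gave 3 of 4 below 0 (median -0.35), of which HIST1H2BJ passed. The block chr6:27807444-27893843 gave 6 of 8 (median -0.34), and HIST2 on chr1:149782689-149887916 gave 5 of 6 (median -0.14), of which HIST2H2BF passed. Both tested HIST3 genes on chr1:228424845-228460470 were below 0 (median -0.45) and HIST4H4 on chromosome 12 was not, and none of these 3 passed. Over all tested genes 6.85% passed with a lower level and 50.3% were below 0. No test of a difference between blocks was made. The other protein-coding genes were taken from chr6:26017085-27893843, a span that includes the long gaps between the chromosome 6 blocks. Of these neighbours 12 were tested, with a median of -0.05 and 7 of 12 below 0. The 31 tested histone genes of the same span had a median of -0.50. Neighbours inside the blocks and in the gaps were not separated, so these medians do not compare genes within a block. These neighbours included AL031777.3 (log2 fold change -0.71), which overlaps 98.0% of the exonic bases of the member HIST1H2AD. PRSS16, a serine protease gene, was the 1 neighbour that passed (379, 370.5 and 323 against 79.5, 97.0 and 61.2, log2 fold change -2.18, limma adjusted p = 8.7e-07). It was named after its value was seen.

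Many H2A and H2B genes are transcribed in opposite directions from a shared promoter region, which allows the partners to be compared. With RefSeq start sites at most 400 bases apart, 8 such pairs were found, and in 5 of them both genes were tested. This comparison was chosen after the values were seen. HIST1H2BJ and HIST1H2AG start 248 bases apart, and of these the H2B partner fell and the H2A partner did not pass the test. The log2 ratio of HIST1H2BJ to HIST1H2AG (normalized counts + 1, not corrected for length, so that its change alone is read) was 1.90, 2.31 and 2.13 in sh-NC and 0.54, 0.66 and 0.98 in sh-KLF5. The ratio changed by -1.38, with no overlap, and the two-sided exact permutation p = 0.1 is the smallest that 3 against 3 libraries can give. Over the other 4 pairs the H2B-to-H2A ratio changed by -0.31 (HIST1H2BG and HIST1H2AE, exact p = 0.6), -0.40 (HIST3H2BB and HIST3H2A, exact p = 0.2), 0.04 (HIST1H2BC and HIST1H2AC, exact p = 1.0) and 0.12 (HIST2H2BE and HIST2H2AC, exact p = 0.9), and in each of these 4 the groups overlapped. These p-values are raw, and after Benjamini-Hochberg adjustment over the 5 pairs the smallest was 0.5.

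**Figure D4:**
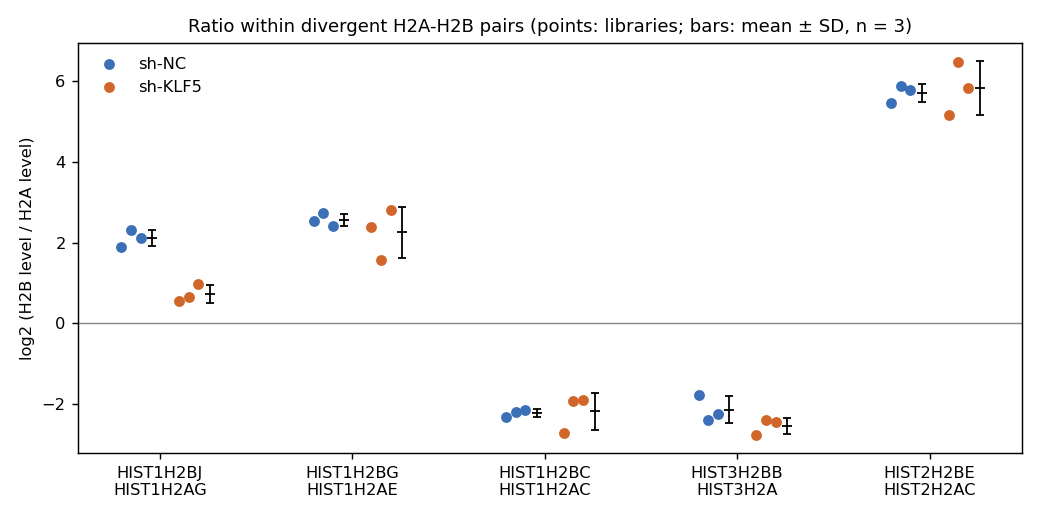
Log2 ratio of the H2B to the H2A level (vertical axis) in 5 divergently transcribed pairs, with the H2B gene named above its H2A partner. Points are libraries (sh-NC blue, sh-KLF5 orange) and bars mean ± SD (n = 3); HIST1H2BJ against HIST1H2AG is the pair whose groups lie apart, with a change of -1.38.

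The promoter windows (250 bases before to 50 after the RefSeq start, GRCh38.p14) were matched for 58 of the 62 members. Letters were searched on both strands. CCAAT, the core of the NF-Y site, was in 82.8% of member windows and 35.7% of all 27305 windows. It was in every matched H1, H2A, H2B and H3 window but only in 1 of 11 for H4. ATTTGCAT, the octamer bound by POU2F1 and its relatives, was in 13 of 17 H2B and 9 of 13 H2A windows and in none of the other classes, and in 1.80% of all windows. TATAAA was in 67.2% of member windows against 11.95%. Letters of the form CCNCNCCC, which resemble the CC-rich sites of the KLF family, were in 24.1% of member windows against 55.1% of all. Of the 7 genes that fell, 6 held CCAAT, 4 the octamer, 2 TATAAA and 2 the CC-rich letters. Matches are a description of these windows and were not tested as sites.

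For 1 gene of each class with a gene that fell, the window is given 5′ to 3′ on the gene's strand. Capitals mark CCAAT, ATTTGCAT and TATAAA on either strand, where TATAAA and its reverse complement may overlap. The window of HIST1H2BJ also spans the start of HIST1H2AG on the other strand, and most of its marked letters lie in the HIST1H2AG window too, which holds 4 CCAAT, 1 octamer and 3 TATAAA.
HIST1H2BJ (chr6:27132746-27133045, minus strand): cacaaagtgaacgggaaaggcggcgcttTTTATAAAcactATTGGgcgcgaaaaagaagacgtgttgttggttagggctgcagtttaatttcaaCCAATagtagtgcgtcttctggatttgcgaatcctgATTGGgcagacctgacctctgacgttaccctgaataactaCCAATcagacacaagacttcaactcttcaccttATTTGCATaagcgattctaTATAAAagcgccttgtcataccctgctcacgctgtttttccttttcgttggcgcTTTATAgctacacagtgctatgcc
HIST1H1C (chr6:26056421-26056720, minus strand): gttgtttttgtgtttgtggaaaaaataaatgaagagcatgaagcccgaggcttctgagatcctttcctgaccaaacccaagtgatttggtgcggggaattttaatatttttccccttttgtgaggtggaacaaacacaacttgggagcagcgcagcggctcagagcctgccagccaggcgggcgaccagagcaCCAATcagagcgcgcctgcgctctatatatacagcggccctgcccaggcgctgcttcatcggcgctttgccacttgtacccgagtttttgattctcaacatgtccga
HIST1H3G (chr6:26271364-26271663, minus strand): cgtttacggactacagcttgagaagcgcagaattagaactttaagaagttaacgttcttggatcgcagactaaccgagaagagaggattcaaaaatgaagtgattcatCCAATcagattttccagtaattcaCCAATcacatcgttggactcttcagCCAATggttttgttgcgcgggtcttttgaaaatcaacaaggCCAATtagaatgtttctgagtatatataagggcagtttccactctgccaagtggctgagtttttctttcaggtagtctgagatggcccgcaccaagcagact
HIST1H4H (chr6:26285485-26285784, minus strand): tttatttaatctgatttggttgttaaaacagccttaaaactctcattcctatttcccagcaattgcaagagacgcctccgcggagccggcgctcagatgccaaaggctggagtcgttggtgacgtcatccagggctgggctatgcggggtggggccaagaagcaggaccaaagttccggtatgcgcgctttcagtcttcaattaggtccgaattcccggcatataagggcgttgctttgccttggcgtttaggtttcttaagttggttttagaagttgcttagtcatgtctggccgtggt
HIST1H2BJ held 4 CCAAT, 1 octamer and 4 TATAAA, counted on both strands, and HIST1H3G held 4 CCAAT. HIST1H1C held 1 CCAAT, and none of the 3 elements was found in the HIST1H4H window.

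Gene models bear on what these values count. For 25 members the model is the coding part alone, and of the 11 tested among them 1 passed and 9 were below 0 (median log2 fold change -0.60). In 23 members the model runs over 100 bases past the stem-loop, and of the 21 tested 5 passed and 18 were below 0 (median -0.33). In the 30 members without a stem-loop in the model, which include the coding-only ones, 2 of 16 tested passed and 13 were below 0 (median -0.65). Only 3 of the 9 members whose model ends within 100 bases of the stem-loop were tested, and all 3 were below 0 (median -0.28). Over all tested genes 6.85% were lower at this threshold and 50.3% were below 0, and no difference between the model types was tested. Per kilobase, the median sh-NC level was 97.9 normalized counts for the members with the longer models, 19.4 for those ending near the stem-loop and 24.3 for those without a stem-loop in the model. Reads of classes that also lack a tail were few in both groups. Small nuclear RNAs had 961, 910 and 608 reads in sh-NC and 782, 784 and 704 in sh-KLF5, and small nucleolar and Cajal body RNAs had 992, 943 and 672 against 827, 860 and 883, with overlap in both. Of 10 single non-polyadenylated RNAs looked up, 4 were in the table and 1 was tested, RN7SL2, which did not pass (56.8, 53.2 and 17.0 against 8.15, 59.2 and 29.1 normalized counts, limma adjusted p = 0.62). Histone reads were 26975, 22152 and 23563 against 16729, 17642 and 17771. The part of tailless RNA in the histone values was not tested.

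Most replication-independent histone variants are made throughout the cell cycle from polyadenylated mRNAs. Of the 11 tested genes for replication-independent variants, 2 fell and 1 rose (median log2 fold change -0.04). Over all tested genes 6.85% fell and 6.04% rose at this threshold. The linker histone H1F0 had 5451, 5807 and 6565 normalized counts in sh-NC and 2777, 3677 and 4295 in sh-KLF5 (log2 fold change -0.75, limma adjusted p = 0.0022). The macroH2A gene H2AFY2 fell as well (log2 fold change -0.65, limma adjusted p = 0.0098), whereas H2AFJ had 529.8, 512 and 625 against 643, 1010.1 and 823 and rose (log2 fold change 0.55, limma adjusted p = 0.027).

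Genes that transcribe and process histone mRNA or carry histones were looked up as well, where the share of all tested genes was 6.85% for a fall and 6.04% for a rise. In the list of 10 histone transcription genes, 1 fell and the others did not pass. This was POU2F1, the octamer-binding factor OCT1 (log2 fold change -0.45, limma adjusted p = 0.016). Of the 10, 9 had a log2 fold change below 0 (background 50.3%). CCNE1 was higher in sh-KLF5, at 507, 397 and 471 normalized counts in sh-NC against 576, 658 and 596. Its groups did not overlap, and it missed the threshold narrowly (log2 fold change 0.42, limma adjusted p = 0.0504). In the 13 tested genes of histone 3′ end processing, ZNF473, a U7 snRNP-associated zinc finger protein, fell from 767, 771 and 758 to 395, 459 and 539 normalized counts (log2 fold change -0.73, limma adjusted p = 0.0013), and the others did not pass, SLBP among them, with a log2 fold change of 0.05 (95% confidence interval -0.20 to 0.31). Of 17 histone chaperone genes, 3 fell, which were the CAF-1 subunits CHAF1A (-0.60, limma adjusted p = 0.0084) and CHAF1B (-0.66, limma adjusted p = 7.7e-04) and the H1 and H3-H4 chaperone NASP (-0.41, limma adjusted p = 0.027), and the others did not pass.

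Genes of S phase and proliferation moved in the same direction as the histone genes. Of 19 on the list, 13 fell, against 6.85% of all tested genes. All 19 had a log2 fold change below 0 (median -0.43), against 50.3% of all tested genes. Their summed level was 65413 to 71747 normalized counts in sh-NC and 43488 to 54348 in sh-KLF5. CDC45, a helicase component, had 568, 749.9 and 729 normalized counts against 290.5, 327 and 373 (log2 fold change -1.04, limma adjusted p = 1.3e-04). The licensing factor CDC6 had 1863, 1759.8 and 1824 against 1129, 1032 and 1095 (log2 fold change -0.74, limma adjusted p = 2.0e-04). MKI67, a marker of cycling cells, had 18428, 21355 and 18862 against 7769, 11465 and 15929 (log2 fold change -0.80, limma adjusted p = 0.015). In these bulk libraries fewer cells in S phase and less histone mRNA per cell cannot be told apart, and the part of the S-phase genes' fall in the histone values was not tested.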

How the data were processed

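Poly(A)-selected RNA of 3 sh-NC and 3 sh-KLF5 SKOV3 libraries was sequenced, and groups and replicate numbers were taken from the labels. The deposited table lists 29185 genes, and the signal it gives for each library is the gene's read number after division by that library's size factor, as made by the authors. The submitters' processing notes name HISAT2 2.0.5, featureCounts 1.5.0-p3, DESeq2 1.20.0 and the build hg38, without their order or settings. Whether strand was used in counting is not given in the sources used here. Deposited columns with the authors' group means, fold changes and p-values were not used.

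All values (100%, tolerance 0.001) were whole multiples of the value of 1 read, and reads were recovered from them. The design allowed for edgeR on raw counts, but since the deposited unit is normalized, log2(normalized count + 1) was fitted in R 4.3.3 by limma 3.58.1 (empirical Bayes with trend and robust settings, Benjamini-Hochberg over 15803 genes left by filterByExpr, minimum count 10). edgeR 4.0.16 and DESeq2 1.42.0 on the recovered reads, other factors, pseudocounts and filters, a replicate block and leaving out each library were the alternatives. The fit was tested on simulated data. Libraries of a group differed by more than sampling noise (chi-square per degree of freedom 4.33 to 30.4). Replicate numbers gave little sign of pairing the libraries (correlations of deviations 0.059, 0.033 and 0.050), and libraries of unlike number were not compared. Exact permutation tests over libraries were two-sided.

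Gene models, stem-loops and windows of 75 bases shared between genes came from GENCODE 29, whose coordinates match all 29185 genes, and promoters from RefSeq on GRCh38.p14. Named were members with adjusted p under 0.05, the 4 most abundant tested members of each class, the highest and lowest fold change and the HIST3 and HIST4 genes, and from the other lists the genes past the test and some of the most abundant. Members and lists were chosen with earlier results of these data known. A count of 0 allows up to 3 reads, which covers counting error only.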

Additional observations from a re-analysis of the deposited data

How the results depend on the processing

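The 7 histone genes with limma adjusted p under 0.05 became 14 with the replicate number as a block (replicate block), although the numbers gave little sign of pairing the libraries. The 7 became 6 to 12 when 1 library was left out, with 12 without sh-KLF5 replicate 1 and 10 without sh-KLF5 replicate 3. Counts over all tested genes moved too. At adjusted p under 0.05, 1383 of 15803 genes were lower with the block, against 1083 of 15803 in the main fit. Without sh-KLF5 replicate 1, 1514 of 16373 genes were lower, and without sh-KLF5 replicate 3, 1146 of 16349. The 3 histone genes that also had a log2 fold change below -1 became 2 to 5 when 1 library was left out, with 5 without sh-KLF5 replicate 3. Over all tested genes, 592 of 16349 met both limits without sh-KLF5 replicate 3, against 533 of 15803 in the main fit. No setting gave a histone gene that rose. Leaving out a library moved the class medians of the log2 fold change over -0.85 to -0.71 for H1, -0.40 to -0.26 for H2A, -0.74 to -0.47 for H2B, -0.59 to -0.22 for H3 and -0.42 to -0.19 for H4. For H4 the median was -0.15 where each library had to hold 10 reads or more, which tests fewer genes. Signs reversed when 1 library was left out for HIST1H3B, over a range of -0.13 (without sh-KLF5 replicate 1) to 0.42, with -0.021 without sh-NC replicate 2, for HIST2H2BE (-0.14 to 0.031, the latter without sh-KLF5 replicate 3), for HIST2H4B (-0.30, without sh-NC replicate 1, to 0.99) and for HIST4H4 (-0.073, without sh-KLF5 replicate 3, to 0.27, with -0.069 without sh-KLF5 replicate 1). None of these had passed the test, and the cause was not tested. HIST1H2BE alone among the 7 lost its call, without sh-NC replicate 1 (limma adjusted p = 0.054). The 22 untested members had 20 reads or fewer in each library and were left out of the main test by the filter on low counts. The setting with no filter on low counts included them, but reads this few measure a change poorly.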

Other observations

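The 7 histone pseudogenes listed in the table were outside the comparison of protein-coding members. HIST2H2BC, the most abundant, had 625, 543 and 507 normalized counts in sh-NC and 599, 589 and 528 in sh-KLF5 (log2 fold change 0.04, limma adjusted p = 0.89). HIST1H2APS4 had 29.8, 27.6 and 37.1 against 11.2, 11.6 and 21.1 (log2 fold change -1.10, limma adjusted p = 0.061), and HIST1H1PS1 had 16.8, 11.8 and 17.0 against 4.08, 3.88 and 7.02 (log2 fold change -1.45, limma adjusted p = 0.065). In both, the groups did not overlap, and neither passed the test. HIST2H2BD had 97.8, 78.8 and 79.6 against 154.9, 114.5 and 100.3, with all sh-KLF5 libraries above sh-NC (log2 fold change 0.51, limma adjusted p = 0.14). These 4 were named after their values were seen.

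AL031777.3, a protein-coding gene that overlaps 98.0% of the exonic bases of HIST1H2AD, had 141.5, 100.5 and 125.2 normalized counts in sh-NC and 45.9, 78.6 and 111.3 in sh-KLF5 (log2 fold change -0.71, limma adjusted p = 0.11). HIST1H2AD itself had at most 3 reads in each library.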
